A study of Mus musculus with 24 samples.

Results

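Loss of *Ptk6* in untreated mice was examined over both sexes at once: the 6 *Ptk6*-/- control libraries against the 6 wild type control libraries of the distal jejunum, 12 of the 24 bulk RNA-seq libraries of the series, with sex as a block. Each of the 4 groups (wild type male, *Ptk6*-/- male, wild type female, *Ptk6*-/- female) held 3 mice on regular water. The *Ptk6*-/- line is a germline knockout backcrossed into C57BL/6, so that every cell type of the animal carries the disruption, and the mice were age-matched young adults from different litters of 1 colony. The other 12 mice, whose water held 100 mM succinate over 7 days, were used to measure the same genes again. A gene was counted as a genotype change common to both sexes when it passed edgeR's quasi-likelihood test (Benjamini-Hochberg adjusted p under 0.05 over all genes tested) with a fold change of at least 2 and when, in males and again in females, all 3 *Ptk6*-/- libraries lay on the same side of all 3 wild type libraries. Of 18913 genes that reached 10 counts in 6 or more of these 12 libraries, 105 met these conditions. Each library is 1 mouse, and the p-values measure the spread between these mice.

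PTK6 is an intracellular tyrosine kinase of differentiated epithelial cells of the gut and skin, and it forms a small family with FRK and SRMS. In the intestine it is best known for restraining growth and for promoting differentiation of absorptive cells. Stem cells of the crypts renew the jejunal epithelium. Enterocytes are its absorptive cells, and goblet, Paneth, tuft and enteroendocrine cells are its secretory types. Goblet cells build the mucus layer, chiefly from the gel-forming mucin MUC2.

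In both sexes, *Ptk6*-/- jejunum had more transcript of *Muc2*, of the goblet cell genes *Creb3l1* and *Ern2* and of the fucosyltransferase gene *Fut2*. It also had more of the RNA polymerase II subunit gene *Polr2a* and of the corepressor gene *Spen*, and higher counts on 5 mitochondrial genes, transfer RNA genes among them. It had less of the elongation factor transcript *Eef1b2*, of 4 cytosolic ribosomal protein transcripts and of the calcium-binding protein genes *S100a4* and *S100g*. Of the 105 common changes (0.555% of the genes tested), 66 were higher (0.349%) and 39 lower (0.206%) in *Ptk6*-/- mice. Before the condition on each sex, 150 genes (0.793%) were called, 98 higher (0.518%) and 52 lower (0.275%). Without the fold threshold 963 genes (5.09%) passed the adjusted p, 2.73% higher and 2.36% lower, and leaving out 1 library gave 142 (0.761%, without *Ptk6*-/- female replicate 2) to 5517 (29.4%, without *Ptk6*-/- female replicate 3). Separation of the libraries in both sexes, with no test, was met by 1275 genes (6.74%), 3.34% higher and 3.4% lower. Separation together with the adjusted p at any fold was met by 739 genes (3.91%), 2.03% higher and 1.88% lower. The deposited annotation puts 72 of the 105 in the protein-coding class and 18 among pseudogenes, beside 14958 and 1739 of the 18913 genes tested. Of these pseudogenes 4 were among the 66 higher and 14 among the 39 lower changes.

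The libraries differed in ways that moved with genotype. Total counts lay between 22826652 and 52106284, and wild type male replicate 1 gave 51.2% of its counts to 18S ribosomal RNA, whereas the median of the 12 libraries was 0.286%. The trend of counts with gene length (slope of each gene's log2 deviation on its log2 length) was -0.130 to -0.0124 in the 6 wild type libraries. It was 0.107 to 0.191 in 5 *Ptk6*-/- libraries and -0.139 in *Ptk6*-/- female replicate 3. That library also had the lowest mean correlation with the others of its group (0.905) and the highest mitochondrial share (8.55%). The common changes followed length too, with a median longest transcript of 4154 bases in those that were higher, 819 bases in those that were lower and 2906 bases over all genes tested. Length trend and genotype cannot be fully told apart in these 12 libraries. With an offset for each library's length trend 61 genes were common changes, 48 of the 105 were still called and 78 still passed the adjusted p.

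**Figure D1:**
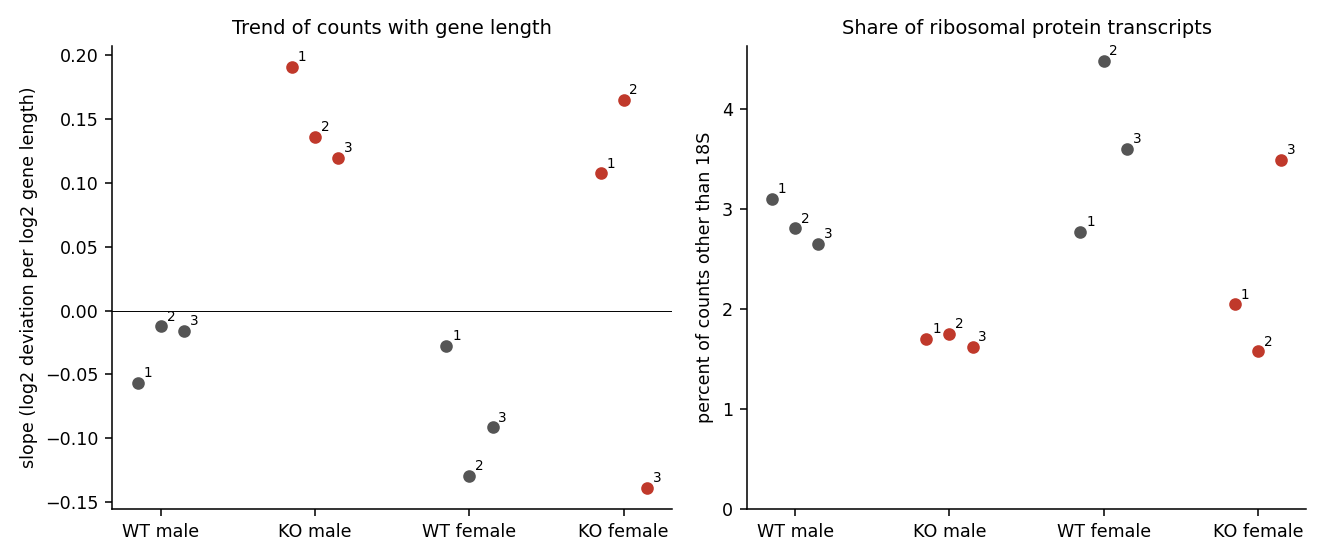
Left, slope of counts on gene length in each control library (log2 deviation per log2 gene length). Right, percent of counts other than 18S that fell on cytosolic ribosomal protein genes. Each point is 1 library, numbered by replicate, grey for wild type and red for *Ptk6*-/-. In males the *Ptk6*-/- libraries lie above the wild type ones on the left and below them on the right, and *Ptk6*-/- female replicate 3 stands apart from its group in both panels.

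The number of common changes depended on single libraries. Where a library was left out, separation in its sex was judged on the libraries that remained and so was easier to meet. Without *Ptk6*-/- female replicate 3, 1021 genes were called and 764 were common changes, with 100 of the 104 original ones still tested among them. Fewer common changes were found without *Ptk6*-/- female replicate 2 (30), *Ptk6*-/- female replicate 1 (67), *Ptk6*-/- male replicate 1 (44), wild type male replicate 2 (44), wild type male replicate 3 (66), wild type female replicate 2 (39) or wild type female replicate 3 (37). The number called fell to 89 without *Ptk6*-/- male replicate 3. With both wild type male replicate 1 and *Ptk6*-/- female replicate 3 (the 2 doubted libraries) left out, an alternative chosen after seeing the data, 990 genes were common changes and 95 of the 103 original ones still tested were among them. No common change turned its direction in any of these fits. Of the 105, 23 kept the call in each of the 12 fits that left out 1 library, 60 kept it in fewer than 7, and the median was 5 of 12.

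The disrupted gene checked the labels. *Ptk6* (ENSMUSG00000038751, chr2:180835514-180844582, minus strand, GRCm39) stood at 25.6, 27.1 and 40.6 CPM (TMM-normalized counts per 1000000 counts) in wild type males and at 48.2, 35.5 and 26.9 CPM in wild type females. The *Ptk6*-/- males gave 0.697, 1.23 and 0.898 CPM and the *Ptk6*-/- females 0.591, 0.669 and 0.954 CPM, so that no library of one genotype came near the other. The log2 fold change was -5.34 ± 0.25 (SE), a 40.4-fold difference, with an edgeR adjusted p of 2.67e-07, and the exact two-sided permutation test within sex gave the smallest p it allows, 0.005 (400 arrangements, n = 6 per genotype). Each *Ptk6*-/- library still held 24 to 61 *Ptk6* reads, and which exons they came from cannot be read from gene counts.

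*Frk*, which encodes a kinase of the same family, had higher values in both sexes, mainly in males. The log2 fold change was 0.91 ± 0.21 in males and 0.34 ± 0.21 in females (unadjusted edgeR p 0.000977 and 0.134). Its levels were 48.9 to 55.6 CPM in wild type males against 77.4 to 125 CPM in *Ptk6*-/- males, and 54.7 to 58.2 CPM in wild type females against 58.4 to 91.1 CPM in *Ptk6*-/- females, with only a narrow gap between the female groups. Over both sexes the log2 fold change of 0.62 ± 0.16 passed the edgeR adjusted p (0.0465) but not the fold threshold. The adjusted p was 0.0860 with the length offset and up to 0.125 when 1 library was left out. *Srms*, the remaining member, was barely detected, at 0 to 1.05 CPM in the 12 libraries, and did not pass (adjusted p 0.279). Among 20 tested substrates and partners of PTK6, *Egfr*, the epidermal growth factor receptor gene, rose by 0.91 on the log2 scale (adjusted p 0.0126). *Dok1*, an adaptor that dampens receptor kinase signals, fell by 0.68 (adjusted p 0.0238, but 0.143 with the length offset). Both were separated in both sexes and changed by less than 2-fold, and the other 18 did not pass, beside 3.91% of all genes that passed with separation in both sexes. Around the locus, 52 genes within 1000000 bases of *Ptk6* were tested and *Ptk6* alone was called. *Tpd52l2*, *Col20a1* and *Ogfr* passed the adjusted p at less than 2-fold, beside 5.09% of all genes, and the median log2 fold change over the genes other than *Ptk6* was 0.12, against 0.03 over all genes tested.

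**Figure D2:**
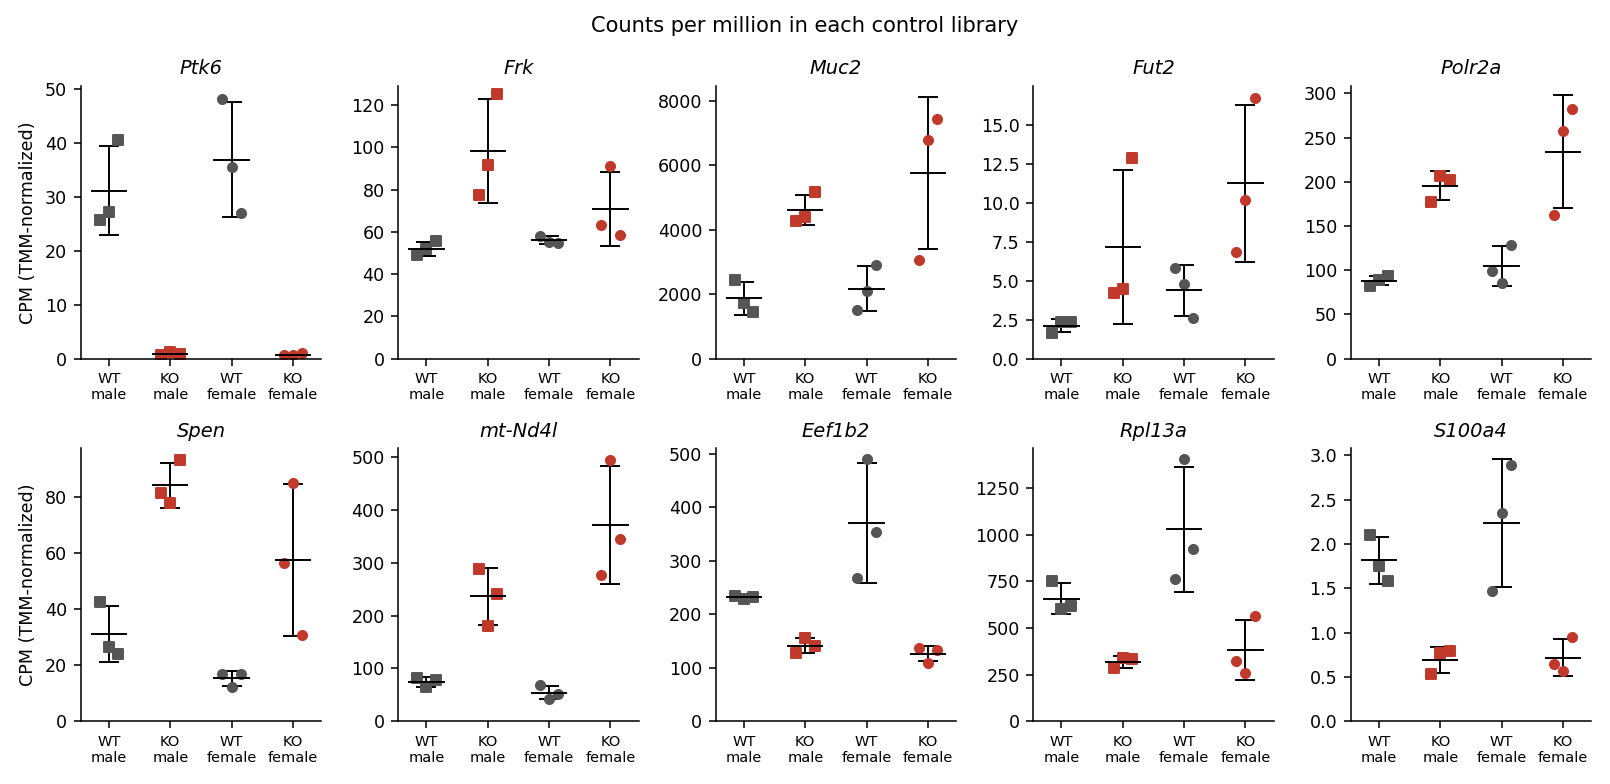
TMM-normalized CPM of 10 genes in each control library. Each point is 1 mouse (squares male, circles female, grey wild type, red *Ptk6*-/-), with the mean and SD of 3 mice per group, and every vertical axis starts at 0. *Ptk6* is near 0 in all 6 *Ptk6*-/- libraries, and for each gene shown the 3 *Ptk6*-/- libraries lie on one side of the 3 wild type libraries in both sexes.

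*Muc2* (ENSMUSG00000025515, chr7:141276583-141308430, plus strand, GRCm39) was measured at 2443, 1712 and 1451 CPM in wild type males against 4278, 4388 and 5151 CPM in *Ptk6*-/- males. In females it was measured at 1502, 2092 and 2890 CPM against 3053, 6782 and 7428 CPM. The groups did not overlap in either sex, though the lowest *Ptk6*-/- female lay close to the highest wild type female. The log2 fold change was 1.36 ± 0.26 (edgeR adjusted p 0.0184, n = 6 per genotype), with 1.3 in males and 1.41 in females. The exact permutation p within sex was 0.005, the smallest that test allows. It follows from the separation in both sexes and adds no further support. The call was lost without wild type male replicate 2 (adjusted p 0.0513) and without *Ptk6*-/- female replicate 2 (0.0507), and it held with the length offset (log2 fold change 1.13, adjusted p 0.0465).

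Of the 20 goblet cell genes tested, *Muc2*, *Creb3l1* and *Ern2* were common changes and higher (0.349% of all genes), and no other passed the adjusted p (2.73% of all genes, higher). *Creb3l1* encodes a membrane-bound transcription factor of the secretory pathway. It lay at 21.3 to 22.1 CPM in wild type males against 30.2 to 34.8 CPM in *Ptk6*-/- males and at 16.7 to 22.2 CPM against 36.9 to 70.9 CPM in females (log2 fold change 1.00 ± 0.20, adjusted p 0.0209). *Ern2* encodes IRE1 beta, the stress sensor of the endoplasmic reticulum in mucus-secreting cells. It lay at 10.4 to 11.1 CPM against 15.1 to 26.5 CPM in males and at 6.15 to 6.77 CPM against 8.53 to 19.5 CPM in females (log2 fold change 1.06 ± 0.21, adjusted p 0.0212). The remaining list members moved both ways: *Tff3*, the trefoil peptide gene, had a log2 fold change of -0.65 (adjusted p 0.328), *Agr2* of -0.20 (0.553) and *Clca1* of 0.11 (0.774), and the median over the list was 0.05, against 0.03 over all genes tested. With both doubted libraries left out, 6 of the 20 passed higher and 8 lower (15% and 15.2% of all genes), and the median was -0.01. The summed level of 8 goblet cell markers lay at 12385 to 16848 CPM in the wild type libraries and 10172 to 25944 CPM in the *Ptk6*-/- libraries. In whole tissue, a change in the number of cells of a type and a change in RNA per cell cannot be told apart. Without *Ptk6*-/- female replicate 3, which held the highest *Creb3l1* value, the log2 fold change of *Creb3l1* was 0.81 (adjusted p 0.0022) and so under 2-fold. *Creb3l1* kept the call in 8 of the 12 fits and lost it also without each wild type female (adjusted p 0.0418 at under 2-fold, 0.0525 and 0.0538 without replicates 1, 2 and 3). *Ern2* kept it in 6 of the 12, with an adjusted p of at most 0.0578, and the 6 libraries without which it was lost were *Ptk6*-/- male replicate 1, wild type male replicate 2, wild type female replicates 2 and 3 and *Ptk6*-/- female replicates 1 and 2.

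*Fut2* encodes the fucosyltransferase that puts fucose on surface and mucin glycans downstream of interleukin 22. It was the 1 common change in the interleukin 22 list (0.349% of all genes, higher). It was measured at 1.67, 2.37 and 2.34 CPM in wild type males and at 4.20, 4.47 and 12.9 CPM in *Ptk6*-/- males. In females the values were 5.81, 4.78 and 2.61 CPM against 6.82, 10.1 and 16.7 CPM (log2 fold change 1.54 ± 0.33, adjusted p 0.0272). Wild type females thus reached above the lowest *Ptk6*-/- males, and only within each sex were the genotypes apart. Its call was lost without any 1 of 5 libraries, wild type male replicates 2 and 3, wild type female replicates 2 and 3 and *Ptk6*-/- female replicate 2 (adjusted p 0.0564 to 0.0611). Of the 12 tested genes of the list 11 had higher values, beside 52.5% of all genes tested. The adjusted p was passed by 2 (2.73% of all genes, higher), and by 5 with both doubted libraries left out, all higher (15%). *Jak1* passed the adjusted p (0.0381, log2 fold change 0.51, but 0.0781 with the length offset) without separation in both sexes, and the receptor gene *Il22ra1* had a log2 fold change of 2.05 ± 0.56 with an adjusted p of 0.0528 and overlapping females.

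A further 3 genes were picked out after their values were seen. *Dmbt1*, a secreted scavenger-receptor protein that binds bacteria, lay at 892 to 955 CPM against 1023 to 2029 CPM in males and at 424 to 727 CPM against 1529 to 1962 CPM in females (log2 fold change 1.16 ± 0.22, adjusted p 0.0202). *Ceacam1*, an epithelial adhesion receptor, had a log2 fold change of 1.24 ± 0.24 (adjusted p 0.0212). *Muc4*, a membrane-bound mucin, had one of 1.5 ± 0.32 (adjusted p 0.0274). *Dmbt1*, *Ceacam1* and *Muc4* kept the call in 10, 9 and 4 of the 12 fits, and each lost it without *Ptk6*-/- female replicate 2 (adjusted p 0.0520, 0.0520 and 0.0559). With the length offset their log2 fold changes were 0.96, 1.12 and 1.20, with adjusted p of 0.0421, 0.0305 and 0.0365.

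Promoter sequences are given for *Muc2* and for 3 of the genes of protein synthesis that fell, to set members that moved in opposite directions beside each other. They are from RefSeq on GRCm38.p6, each with 250 bases before and 50 bases after the gene start, 5′ to 3′ on the gene's strand: *Muc2* at chr7:141690090-141690389 (plus strand), *Eef1b2* at chr1:63176581-63176880 (plus strand), *Rpl13a* at chr7:45128696-45128995 (minus strand) and *Rps27* at chr3:90213599-90213898 (minus strand). Capitals mark the letters CTTCCG, a core read by ETS-family factors, and TATAA, each searched on both strands.
Muc2: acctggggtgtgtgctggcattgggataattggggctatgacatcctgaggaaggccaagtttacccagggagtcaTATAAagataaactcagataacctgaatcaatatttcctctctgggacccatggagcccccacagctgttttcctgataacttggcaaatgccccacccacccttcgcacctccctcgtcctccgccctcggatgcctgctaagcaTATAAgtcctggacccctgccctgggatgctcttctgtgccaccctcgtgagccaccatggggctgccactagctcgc
Eef1b2: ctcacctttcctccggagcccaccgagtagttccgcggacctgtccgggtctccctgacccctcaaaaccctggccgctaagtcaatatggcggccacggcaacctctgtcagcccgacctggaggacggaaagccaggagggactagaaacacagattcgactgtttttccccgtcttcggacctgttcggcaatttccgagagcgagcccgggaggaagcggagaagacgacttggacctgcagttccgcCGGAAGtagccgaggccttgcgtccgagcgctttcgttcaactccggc
Rpl13a: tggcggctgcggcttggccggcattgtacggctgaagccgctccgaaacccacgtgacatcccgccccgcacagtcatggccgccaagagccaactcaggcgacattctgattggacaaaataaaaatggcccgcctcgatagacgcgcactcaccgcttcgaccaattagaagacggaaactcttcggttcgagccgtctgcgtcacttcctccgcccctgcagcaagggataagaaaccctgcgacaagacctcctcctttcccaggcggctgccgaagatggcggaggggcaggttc
Rps27: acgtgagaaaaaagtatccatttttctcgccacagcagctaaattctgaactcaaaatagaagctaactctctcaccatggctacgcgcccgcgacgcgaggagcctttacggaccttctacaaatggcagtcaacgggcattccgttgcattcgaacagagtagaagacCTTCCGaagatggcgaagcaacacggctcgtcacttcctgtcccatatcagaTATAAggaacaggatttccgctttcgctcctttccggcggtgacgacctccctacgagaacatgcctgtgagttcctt
The *Muc2* window holds TATAA 2 times and no CTTCCG, *Eef1b2* holds CTTCCG 1 time, *Rps27* holds each 1 time and *Rpl13a* holds neither. In 32851 promoters of this length, 16.9% hold CTTCCG and 24.9% hold TATAA. The shares were 59.7% and 25.0% in 72 promoters of the tested ribosomal protein genes, and 24.3% and 21.4% in 70 promoters of the common changes. These are 2 of 7 letter strings searched, chosen after their shares were seen, and a match is not a binding site.

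Among the higher protein-coding common changes with the smallest p was *Polr2a*, the largest subunit of RNA polymerase II. It was measured at 82.3, 89.3 and 93.0 CPM in wild type males against 177, 207 and 203 CPM in *Ptk6*-/- males, and at 99.0, 85.3 and 129 CPM against 162, 258 and 283 CPM in females. Neither sex overlapped, and the log2 fold change was 1.16 ± 0.15 (adjusted p 0.00832). *Spen*, a large corepressor that also acts in X inactivation, lay at 42.6, 26.6 and 24 CPM against 77.8 to 93.2 CPM in males and at 12.1 to 17.0 CPM against 30.8 to 84.9 CPM in females (log2 fold change 1.68 ± 0.24, adjusted p 0.00908). The corepressor gene *Atn1* had a log2 fold change of 1.27 ± 0.16 (adjusted p 0.00832). *Mbd6*, a methyl-binding domain protein, the zinc finger factor *Sp2* and the homeobox factor *Zfhx2* had 1.01, 1.14 and 1.33 (adjusted p 0.00908 for each). The same rule named *Sipa1l3* (1.29), which acts in epithelial polarity, the ubiquitin ligase *Mid1* (1.27), the phospholipid flippase *Atp10b* (1.12) and the AMP deaminase *Ampd3* (1.06). All of these held an adjusted p under 0.05 in each of the 12 fits that left out a library, with 0.0361 the highest, and with the length offset, where the log2 fold changes of *Polr2a*, *Mbd6*, *Atp10b* and *Ampd3* were 0.89 to 1.00 and so under 2-fold. *Mbd6* fell just under 2-fold in 5 of the 12 fits and *Ampd3* in 1, without *Ptk6*-/- female replicate 2. The largest log2 fold change among the higher common changes, 3.31 for the chromatin remodelling gene *Srcap*, was 0.57 (adjusted p 0.0718) when its counts were summed with those of the genes that overlap it on its strand, and how reads were split between them was not tested.

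Of 32 tested transcripts of the mitochondrial genome, 5 were common changes and higher, beside 0.349% of all genes, and no other passed the adjusted p. *mt-Nd4l*, which encodes a small subunit of complex I, was measured at 82.8, 64.5 and 78.2 CPM in wild type males against 289, 181 and 241 CPM in *Ptk6*-/- males. In females it was measured at 67.8, 42.4 and 52.3 CPM against 276, 494 and 344 CPM, and the genotypes were far apart in both sexes (log2 fold change 2.22 ± 0.25, adjusted p 0.0053). Its reading frame overlaps that of *mt-Nd4*, and for both together the log2 fold change was 1.36 with an adjusted p of 0.0534. The nuclear pseudogene *Gm10222*, a copy of the same sequence, had 2.19 ± 0.25, so reads may be split between them. The other common changes were *mt-Nd5* (1.42), the ATP synthase subunit gene *mt-Atp8* (1.68) and the transfer RNA genes *mt-Tl1* (1.20) and *mt-Tm* (1.79). They kept the call in 4, 5, 7 and 2 of the 12 fits, in that order, with adjusted p of at most 0.0767, 0.0787, 0.0664 and 0.0864, whereas *mt-Nd4l* kept it in all 12. The genes *mt-Tl1* and *mt-Tm* are 75 and 69 bases long, and which molecules gave their reads in these poly(A) libraries was not tested. *Ptk6*-/- female replicate 3 held 6928 CPM of *mt-Nd5* and the other *Ptk6*-/- libraries 1350 to 3075 CPM, against 752 to 1120 CPM in wild type. Of the 32 transcripts 24 had higher values, beside 52.5% of all genes, with a median log2 fold change of 0.43 (0.17 in males and 0.77 in females). The length offset, under which 12 passed the adjusted p, all higher (1.35% of all genes), moved the median to 0.72. With both doubted libraries left out 10 passed higher and 2 lower (15% and 15.2% of all genes).

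Transcripts of nuclear genes for the same organelle had lower values. Of 106 respiratory chain subunits encoded in the nucleus 104 had a negative log2 fold change, with a median of -0.53. The adjusted p was passed by 9, all lower (2.36% of all genes) and none a common change, among them *Ndufv1* (-0.60, adjusted p 0.0282) and *Uqcrfs1* (-0.70, 0.0304), which encode subunits of complexes I and III. With the length offset the median was -0.34 and 2 passed (1.37% of all genes, lower), not *Uqcrfs1* (0.153). When 1 library was left out the adjusted p of *Ndufv1* and *Uqcrfs1* reached 0.0729 and 0.0817. Lower values passed in 21 with DESeq2 (6.12% of all genes) and in 87 with both doubted libraries left out (15.2%), and none passed with limma on log2(FPKM + 1) (0.043%).

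**Figure D3:**
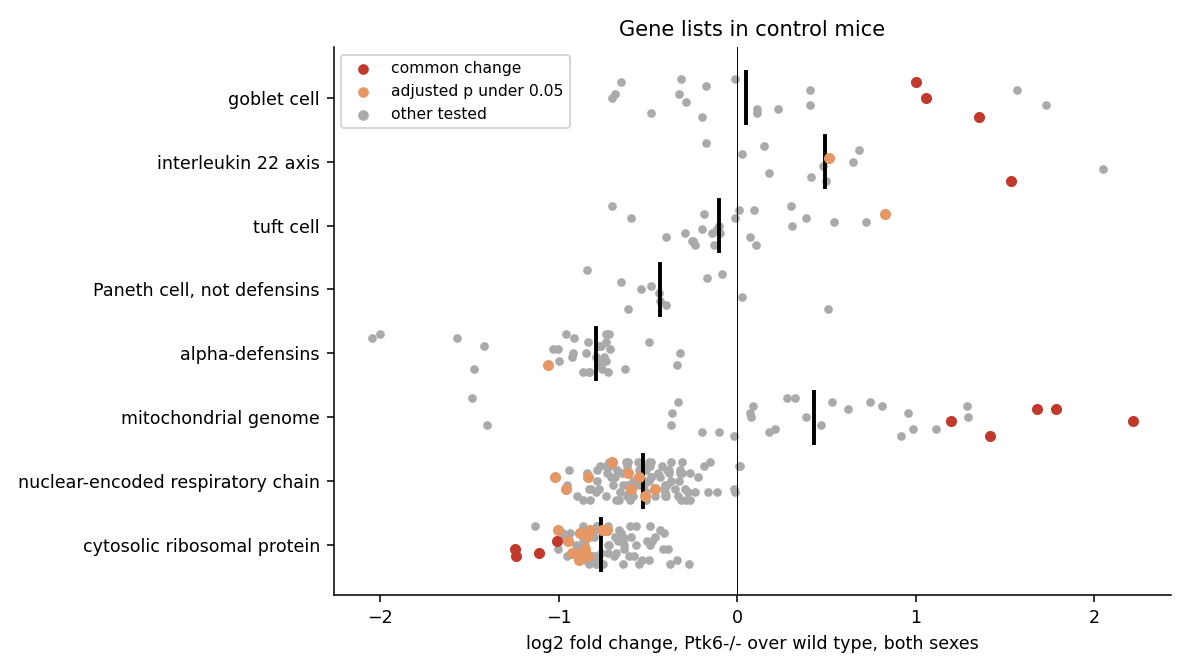
Log2 fold change, *Ptk6*-/- over wild type in both sexes of control mice, of the tested members of 8 gene lists. Each point is a gene, red for a common change, orange for an adjusted p under 0.05 without one and grey for the rest, and the black bar is the list's median. The ribosomal protein genes all lie below 0 with a median of -0.76, whereas the goblet cell genes lie on both sides with a median of 0.05.

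Common changes among transcripts of the translation machinery were *Eef1b2* and 4 of 83 tested ribosomal protein genes, all lower, beside 0.206% of all genes. *Eef1b2*, which recharges the elongation factor that brings aminoacyl-tRNA to the ribosome, was measured at 235, 229 and 232 CPM in wild type males against 128, 156 and 140 CPM in *Ptk6*-/- males, and at 267, 491 and 355 CPM against 137, 110 and 133 CPM in females. All 6 *Ptk6*-/- libraries lay below all 6 wild type libraries (log2 fold change -1.13 ± 0.19, adjusted p 0.0151), and without wild type female replicate 2 the difference was -0.97 (adjusted p 0.0261). *Rpl13a* of the large subunit was measured at 751, 600 and 618 CPM against 283, 338 and 331 CPM in males, and at 760, 1402 and 924 CPM against 325, 259 and 565 CPM in females. Here too all 6 lay below all 6 (log2 fold change -1.24 ± 0.22, adjusted p 0.0156), and the call held in each of the 12 fits that left out a library. *Rplp1*, *Rps14* and *Rps27* were the other common changes of the list, with log2 fold changes of -1.01, -1.25 and -1.11 (adjusted p 0.0241, 0.0288 and 0.0390). They kept the call in 6, 4 and 3 of the 12 fits, with adjusted p of at most 0.0640, 0.0678 and 0.0904, and *Rps27* did not pass with the length offset (0.0655). With that offset *Eef1b2* (-0.99) and *Rplp1* (-0.61) were under 2-fold and so no longer called.

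All 83 tested ribosomal protein genes had a negative log2 fold change, with a median of -0.76 (-0.89 in males, -0.62 in females). Of these, 18 passed the adjusted p (2.36% of all genes, lower) and 5 were called (0.275%). Their summed share of counts other than 18S was 2.65% to 4.49% in wild type libraries and 1.58% to 2.05% in *Ptk6*-/- libraries, except 3.50% in *Ptk6*-/- female replicate 3. These genes are short, and with the length offset the median was -0.58 and 12 passed (1.37% of all genes, lower). With DESeq2 38 passed (6.12%) and with both doubted libraries left out 80 passed (15.2%), with a median of -1.05. None passed with limma on log2(FPKM + 1), where the median was -0.60 (0.043% of all genes, lower). The part of the length trend in this difference was not tested apart from genotype.

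Other lower genes with the smallest p were of mixed function. *S100a4*, a calcium-binding protein of motile and stromal cells, was measured at 2.11, 1.75 and 1.58 CPM against 0.528, 0.768 and 0.788 CPM in males and at 1.47, 2.35 and 2.89 CPM against 0.640, 0.561 and 0.954 CPM in females, low levels without overlap (log2 fold change -1.51 ± 0.26, adjusted p 0.0152). *S100g*, the calcium-binding protein of absorptive cells, was also low (-1.81 ± 0.40, adjusted p 0.0288). It lay at 1.40 to 2.11 CPM against 0.170 to 0.591 CPM in males. In females it lay at 1.99 to 3.82 CPM against 0.468 to 1.97 CPM, with almost no gap between the groups. *Ebpl*, a relative of a sterol isomerase, lay at 13.7 to 14.5 CPM against 7.05 to 10.5 CPM in males and at 21.0 to 29.8 CPM against 6.93 to 11.2 CPM in females (-1.13 ± 0.20, adjusted p 0.0152). The somatostatin receptor gene *Sstr3* (-1.65), the G protein subunit gene *Gng11* (-1.15) and the replication histone gene *H4c9* (-1.15) had adjusted p of 0.0173, 0.0311 and 0.0311. *S100a4*, *Ebpl* and *Sstr3* held the call in all 12 fits that left out a library, whereas *S100g*, *Gng11* and *H4c9* lost it in 8, 9 and 9 of them. With the length offset *Gng11* (-0.83) and *H4c9* (-0.78, adjusted p 0.0648) were under 2-fold and no longer called. The ferredoxin gene *Fdx2* had a log2 fold change of -2.46 (adjusted p 0.0286), but summed with the genes that overlap it on its strand the value was 0.92 (adjusted p 0.212), the opposite direction.

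Lists of other cell types were tested in the same fit. None of the 25 tested tuft cell genes was called (0.793% of all genes), and *Hpgds*, the prostaglandin D synthase gene, passed the adjusted p alone (log2 fold change 0.83, 0.0482, beside 5.09% of all genes), but not with the length offset (0.104). None of 12 Paneth cell genes other than defensins passed, with a median of -0.43. All 37 tested alpha-defensins had negative values, with a median of -0.79 that was -0.39 with the length offset, and *Defa35* was called (-1.06, adjusted p 0.0436) without separation in both sexes. *Defa35* kept the call in 2 of the 12 fits and had an adjusted p of 0.160 with the length offset, and 28 of the 37 passed lower with both doubted libraries left out (15.2% of all genes). These genes share sequence, and reads may be split among them. *Axin2*, a Wnt target of crypt cells, and *Il33*, an alarmin of type 2 immunity, were separated in both sexes at less than 2-fold (log2 fold change 0.84 and 0.88, adjusted p 0.0157 and 0.0280, and up to 0.0439 and 0.0648 when 1 library was left out). They alone passed among 15 stem cell and Wnt genes and 19 type 2 immunity genes, beside 5.09% of all genes. Values were positive in 11 and 14 of these, beside 52.5% of all genes, with medians of 0.22 and 0.08. Of 16 T and intraepithelial lymphocyte genes *Gzma*, a granule protease gene of cytotoxic lymphocytes, was called lower (-1.04, adjusted p 0.0375) without separation in both sexes, and none of the list passed with the length offset. The summed level of 5 T cell markers lay at 121 to 254 CPM in the wild type libraries and 80.6 to 202 CPM in the *Ptk6*-/- libraries. None of 16 B cell follicle and plasma cell genes passed, 12 had positive values, and the median of 0.68 was -0.35 in males and 1.64 in females. The summed level of 6 B cell follicle markers lay at 2.35 to 47.7 CPM and 5.37 to 50.2 CPM. None of 24 brush border digestion and transport genes, 16 enteroendocrine, 20 cell cycle or 12 smooth muscle genes passed, beside 5.09% of all genes. With both doubted libraries left out 8 enteroendocrine genes passed lower and 1 higher, 2 brush border and 3 cell cycle genes lower and 3 smooth muscle genes higher, beside 15.2% of all genes lower and 15% higher. Of 53 tested replication histone genes *H4c9* was the 1 common change (0.206% of all genes, lower). *H3c14* was called higher (log2 fold change 1.37, adjusted p 0.0436) and *H1f2* passed the adjusted p at less than 2-fold (-0.95, 0.0346), both without separation in both sexes. Of the 53, 2 had positive values, beside 52.5% of all genes. Their median log2 fold change was -1.25, with -2.84 in males and 0.24 in females, and -0.19 with both doubted libraries left out. Across 41 lists with 795 distinct tested genes, 60 passed the adjusted p, against 5.09% of all genes tested. Leaving out 1 library gave 8 (without *Ptk6*-/- female replicate 2, 0.761% of all genes) to 345 (without *Ptk6*-/- female replicate 3, 29.4%).

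The genotype effect was set side by side in the sexes. Over the 105 common changes the signs agreed by construction. Among the 66 higher genes the median log2 fold change was 1.00 in males and 1.40 in females. Among the 39 lower genes it was -1.04 and -1.39. Of the 105, 24 (22.9%) had the larger size in males, beside 44.7% of all genes tested. No gene of the 18913 passed the edgeR test of the sex by genotype interaction, with a smallest adjusted p of 0.367 and 843 genes (4.46%) at an unadjusted p under 0.05, while DESeq2 called 17, none of them a common change. Among the common changes 13 of 105 had an unadjusted interaction p under 0.05, among them *mt-Nd4l* (1.66 in males, 2.78 in females, p 0.0102), *Eef1b2* (-0.71 and -1.55, p 0.0173), *Pck1*, the gluconeogenic carboxykinase gene (-0.70 and -2.26, p 0.0204), and *Creb3l1* (0.59 and 1.41, p 0.0259). In each of these the female difference was the larger, and none passed after adjustment. *Pck1* kept its call for genotype in 1 of the 12 fits and lost it with the length offset (adjusted p 0.0538).

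**Figure D4:**
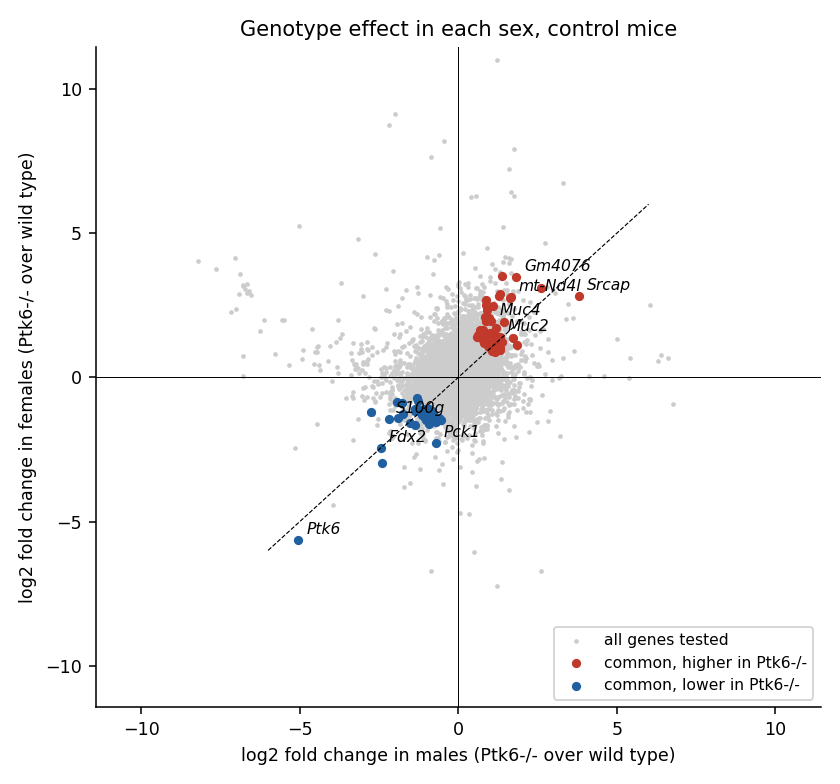
Log2 fold change of each of 18913 genes in males (horizontal) and females (vertical), *Ptk6*-/- over wild type. Grey points are all genes tested, red and blue points the 66 higher and 39 lower common changes, and the dashed line marks equal change. *Ptk6* lies at -5.04 and -5.64, and 24 of the 105 coloured genes are larger in males.

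The 12 succinate-treated mice share no library with the controls, and the genes chosen in the controls were measured again there. Of 18770 genes tested in these mice, edgeR called *Ptk6* alone (0.00533%), with 509 genes at an unadjusted p under 0.05, and DESeq2 called 4. *Ptk6* had a log2 fold change of -4.92 ± 0.45 (adjusted p 0.00103). Of 104 common changes tested there, 68 (65.4%) had the same direction, beside 60.8% of all genes, and the median was 0.11 for those higher and -0.27 for those lower in controls. Along with *Ptk6*, *Wnt6*, a Wnt ligand gene, was the only common change whose genotypes were also separated in both sexes under succinate (0.352% of all genes were), at 1.48 to 4.20 CPM in wild type and 0 to 1.31 CPM in *Ptk6*-/- (log2 fold change -1.33, against -1.13 in controls). Its call in the controls was kept in 3 of the 12 fits that left out a control library (adjusted p up to 0.0993), and with the length offset it was under 2-fold (-0.98). *Muc2* had 0.29 under succinate, *Dmbt1* 0.73, *Muc4* 1.01, *Polr2a* 0.03, *Rpl13a* -0.05 and *mt-Nd4l* -0.42, each smaller in size than in the controls or of the opposite sign. The trend of counts with gene length in the succinate libraries was -0.177 to 0.145 and did not follow genotype. Leaving out *Ptk6*-/- male replicate 1 (29.7% of counts on 18S) and wild type female replicate 2 (14.1% mitochondrial) of the succinate mice, again chosen after seeing the data, gave 86 of 104 in the same direction (82.7%), beside 68.8% of all genes. Leaving out 1 succinate library at a time gave 51% to 80.8%, beside 54.6% to 67.4% of all genes, with medians of -0.01 to 0.40 for those higher and -0.58 to 0.04 for those lower in controls. In 4 of these 12 fits, those without wild type male replicate 2 or 3 or *Ptk6*-/- male replicate 2 or 3, the share was below that of all genes (51%, 55.8%, 52.9% and 54.8%, beside 54.6%, 57.9%, 56.3% and 57.3%). No gene passed the edgeR test of a difference in genotype effect between treatments (smallest adjusted p 0.865, 1080 genes at an unadjusted p under 0.05), a test that shares the control libraries in which the genes were chosen.

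**Figure D5:**
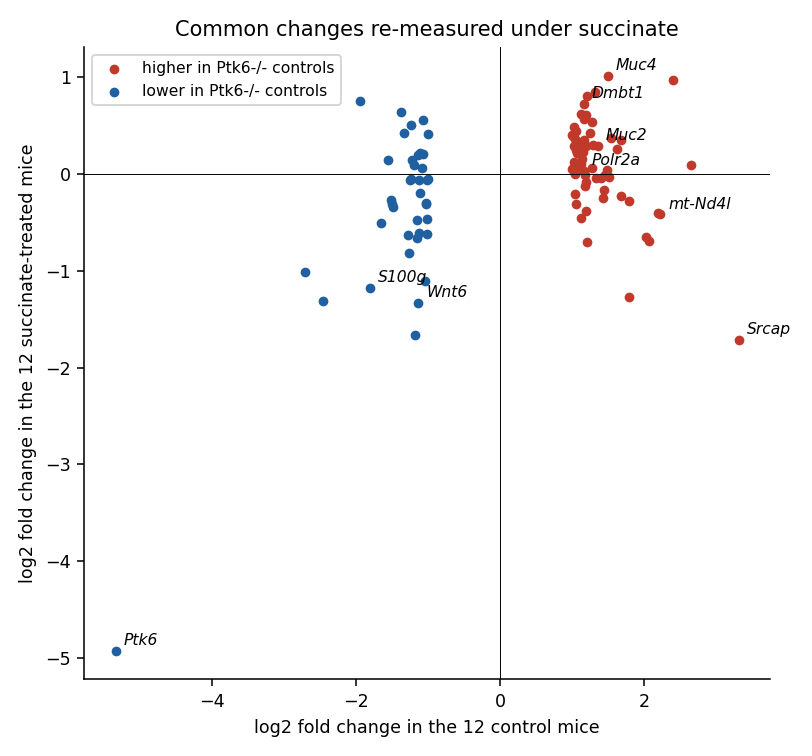
Log2 fold change, *Ptk6*-/- over wild type, of the common changes in the 12 control mice (horizontal) against the 12 succinate-treated mice (vertical), red for genes higher and blue for genes lower in *Ptk6*-/- controls. *Ptk6* lies far from the rest at -5.34 and -4.92, and 68 of 104 genes have the same sign on both axes.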

How the data were processed

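Distal jejunum poly(A) RNA of 24 mice was sequenced as stranded libraries. The authors deposited raw counts per gene, with no normalization, and FPKM values made with StringTie (fragments per kilobase and per unit of mapped fragments). The submitters' processing notes name GRCm39; the counting program and annotation release are not given in the sources used here. Total counts and the length trend of the 12 control libraries are given in the text. Counts were analysed with edgeR 4.0.16 in R 4.3.3 (TMM, ~ sex + genotype) over the 12 control libraries, over genes that reached 10 counts in 6 or more libraries. A fit with 4 groups gave each sex's fold changes and the interaction. Fold changes are given ± SE. DESeq2 1.42.0 and limma 3.58.1 (voom, and log2(FPKM + 1) with a mean FPKM of at least 0.5) were alternatives. The length offset used gene lengths from the ratio of deposited counts to FPKM. The study's methods name DESeq2 for groups. Named genes were the 12 protein-coding common changes with the smallest p in each direction, the genes *Ptk6*, *Frk*, *Srms*, *Il22ra1*, *Muc2* and *P2ry4*, and the leading members of each list; others are said to be chosen after their values were seen, as were *Srcap*, *Wnt6*, *Pck1*, *mt-Atp8* and *mt-Tm*. The members and lists were chosen with earlier results of these data known. The exact permutation test used log2(CPM + 0.5). In counts simulated for the control comparison (18913 genes, 200 changed), 94.0% of genes changed 4-fold and 34.0% of those changed 2-fold were called, with 5 false calls. The changed genes were drawn only from those with higher fitted counts. Genes were simulated independently from a fit on sex, without a length trend linked to genotype and without outlying libraries. The false calls therefore do not measure the error among the genes called in the mice. The columns of all samples were mapped by name, and no 2 libraries were identical. The authors' own comparisons were not used. Some genes that the rule names are not reported here.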

Additional observations from a re-analysis of the deposited data

Results flagged for a closer look

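Among 106 groups of 6 control libraries (53 named genes in each genotype, both sexes together), 15 held a library far from the other 5 (gap to the nearest library over the whole range above Dixon's 95% critical value); chance gives about 1 in 20 groups. *Ptk6*-/- female replicate 3 was that library in 7 of the 15. It was the highest *Ptk6*-/- library for *Rpl13a* (565 CPM), *Rplp1* (398 CPM), *Rps14* (438 CPM), *Rps7* (303 CPM), *S100g* (1.97 CPM), *Creb3l1* (70.9 CPM) and *mt-Nd5* (6928 CPM). Among wild type libraries, female replicate 2 was the highest for *Rps14* (1043 CPM), *Fdx2* (25.4 CPM) and *Tpd52l2* (44.0 CPM) and the lowest for *mt-Tl1* (2.43 CPM). Wild type male replicate 1 was the highest for *P2ry4* (6.06 CPM) and *Zfhx2* (10.2 CPM), wild type female replicate 3 for *Polr2a* (129 CPM), and wild type male replicate 3 was the lowest for *Dok1* (8.68 CPM). The cause was not tested.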

How the results depend on the processing

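The 150 called genes and 105 common changes of the control mice numbered 61 common and 81 called with the length offset, 99 called with no sex block, 292 called with DESeq2, 747 with voom and quality weights, 24 called and 21 common with limma on log2(FPKM + 1), 1 and 1 with all 24 libraries in 1 fit, and 3 and 3 with glmTreat. Without a fold threshold they were 963 and 739, and with both doubted libraries left out 1161 and 990, or 669 and 576 with the length offset as well. Leaving out 1 library gave 32 to 1021 called and 30 to 764 common. Wherever libraries were left out, separation was judged on those that remained. A replicate block left 2 called and 2 common, and 4 and 4 with the length offset, but equal numbers do not pair the mice: deviations of the 6 same-numbered pairs correlated at -0.31 to 0.22, 1 of them over 0.1. The list members past the adjusted p numbered 60, and 1 with the replicate block (*Ptk6*), 147 with DESeq2 (all 60 among them) and 7 with limma on FPKM. The interaction had 0 with edgeR and 17 with DESeq2. Under succinate DESeq2 called 4, the filter of 10 counts in every library left 0 because *Ptk6* was not tested, and leaving out 1 library gave 1 to 3. Of 53 named genes, *Fdx2* alone turned its direction, to 0.92 with overlapping genes summed. Other causes were not tested. Counts limit the genes near the floor of 3 reads per library, such as *Srms*.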

Other observations

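Genes outside the intestinal lists were checked for tissue that should be absent. The summed level of 4 lung markers was 0 to 0.330 CPM in the wild type control libraries and 0.0877 to 16.4 CPM in the *Ptk6*-/- control libraries, highest in *Ptk6*-/- female replicate 3. None of the 4 markers exceeded 3 counts in every library and none was called, and the cause was not tested. Of 5 pancreas markers 4 were at 0 in all 12 control libraries. The nucleotide receptor gene *P2ry4* had a log2 fold change of 1.57 (adjusted p 0.111) in the controls, with values that overlapped in both sexes.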
